A study of Mus musculus with 4 samples.

Results

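The replication-dependent histone genes encode the core histones H2a, H2b, H3 and H4 and the linker histone H1. They were taken as every protein-coding gene of the GENCODE M21 annotation whose symbol starts with Hist1h, Hist2h, Hist3h or Hist4h, and 67 of 21938 protein-coding genes met this rule. Of these, 6 encode H1, 18 encode H2a, 18 encode H2b, 12 encode H3 and 13 encode H4. The Hist1 cluster on chromosome 13 holds 54 of them, the Hist2 cluster on chromosome 3 holds 10, the Hist3 cluster on chromosome 11 holds 2, and Hist4h4 on chromosome 6 stands alone.

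These genes are switched on in S phase, when newly copied DNA has to be wrapped into nucleosomes, and the pool of their mRNA is cleared when replication stops. Their mRNAs are unusual among animal messages, in that they end in a short conserved stem-loop bound by the stem-loop binding protein Slbp instead of a poly(A) tail. N6-methyladenosine (m6A) is a base modification of mRNA that is deposited mostly within the motif DRACH, of which GGAC is the commonest core, and readers such as YTHDF2 bind it and speed decay of the message.

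m6A meRIP-seq, in which RNA fragments carrying m6A are captured with an antibody and sequenced, was performed on Kit+ cells of C57BL/6 foetal liver that had been enriched with magnetic beads. The study's methods describe these as Ythdf2 CTL cells, which come from control mice whose floxed Ythdf2 alleles are not deleted (Ythdf2 fl/fl), and all samples share this background. Age and number of animals per replicate are not given in the labels. The 4 samples were m6A immunoprecipitation (IP) replicates 1 and 2, labelled as total RNA, and input replicates 1 and 2, labelled as polyA RNA. A peak list of each IP replicate was analysed, so the design holds no contrast between conditions. The lists held 15635 and 14872 peaks, of which 11894 and 11493 had the summit, the position of highest enrichment, in an exon of a protein-coding gene. Library sizes are unknown, since peak lists do not hold them, and absence of a peak cannot be told apart from too few reads. Marker genes set the lists against the labelled cells. Of 10 markers of stem and progenitor cells, 7 had a summit in both replicates, while Kit itself, Myb and Ptprc had none. The counts were 4 of 7 for erythroid, 1 of 7 for hepatocyte, 1 of 3 for endothelial and 1 of 3 for macrophage markers. Of all protein-coding genes, 30.9% had a summit in both replicates. The exact interval of the stem and progenitor share (34.8 to 93.3) lay above this value. Those of the erythroid (18.4 to 90.1), hepatocyte (0.36 to 57.9), endothelial and macrophage shares (0.84 to 90.6 each) contained it.

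Histone genes carried m6A peaks in both replicates, in shares near those of protein-coding genes as a whole. A summit lay in an exon of 18 histone genes (26.9%) in replicate 1, where 34.5% of all protein-coding genes had one. In replicate 2 it lay in 25 histone genes (37.3%), against 33.5% of all protein-coding genes. Both replicates placed a summit in 15 histone genes (22.4%), against 30.9% of all, and at least 1 replicate did so in 28 (41.8%), against 37.1% of all. The exact 95% interval of each of the 4 histone shares contained the share of all genes. When summits that also lay in exons of another gene were left out, the order turned in replicate 2 (31.3% of histone genes against 31.6% of all) and for either replicate (32.8% against 35.1%). Of the 13 genes called in 1 replicate, 10 were called in replicate 2 and 3 in replicate 1. Among 1487 other protein-coding genes that, like most histone genes, have a single exon, 220 (14.8%) had a summit in both replicates. The exact interval of the histone share, 13.1 to 34.2, contained this value too. RNA levels were not measured, so the single-exon genes are not matched to the histone genes in expression. With a minimum fold enrichment of 4 the count in both replicates was 5 histone genes (7.46%), where 16.9% of all protein-coding genes remained.

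The calls were counted by histone type. H2b had 7 of 18 genes called in both replicates and 12 in either. H4 had 5 of 13 called in both and 9 in either. H1 had 2 of 6 called in both and 3 in either. H2a had 1 of 18 called in both and 4 in either, and none of the 12 H3 genes had a summit in either replicate. H2b and H4 together thus held 12 of the 15 recurrent genes and 31 of the 67 members. Their joint share in both replicates was 38.7%, with an exact interval (21.9 to 57.8) that contained the 30.9% of all protein-coding genes. The intervals of H2b (17.3 to 64.3), H4 (13.9 to 68.4) and H1 (4.33 to 77.7) contained it too. Those of H2a (0.14 to 27.3) and H3 (up to 26.5) ended below it. Members of a type share much of their sequence, so the counts by type are not counts of independent sites, as the intervals assume. No test between types was made. When summits that also lay in exons of another gene were left out, the only H2a gene called in both replicates was lost and H2a fell to 1 gene in either replicate.

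**Figure D1:**
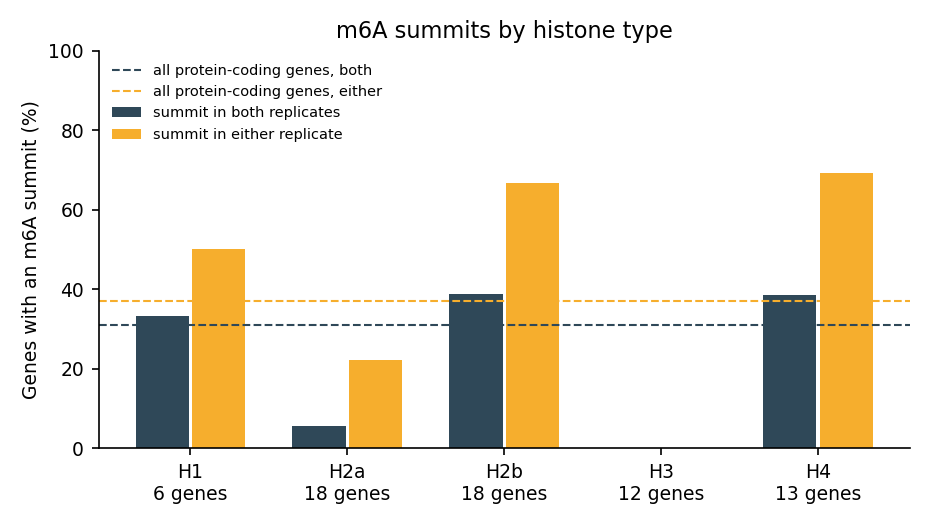
Share of histone genes (vertical axis, %) with a summit in an exon in both replicates (dark bars) or in either (yellow bars), by histone type, with dashed lines for all protein-coding genes (30.9% and 37.1%). The bars of H1, H2b and H4 end above the lines, those of H2a below them, and the 12 H3 genes have no bar; the groups are small and were not tested.

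The histone peaks were similar to others in fold enrichment, narrower, and rested on fewer reads. There were 19 histone peaks in replicate 1 and 28 in replicate 2. Their median fold enrichment, the ratio of IP signal to local background at the summit given in the deposited lists, was 3.83 in replicate 1 and 4.83 in replicate 2, against 4.11 and 4.29 for all peaks in protein-coding exons. The median histone summit rested on 56 IP reads in replicate 1 and 48 in replicate 2, where the median exonic peak had 71 and 68. Median width was 245 and 270 bp, against 406 and 420 bp.

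Of the replicate 1 histone peaks, 16 of 19 (84.2%, exact Clopper-Pearson 95% interval 60.4 to 96.6, counting error only) overlapped a peak of replicate 2. Of the replicate 2 histone peaks, 16 of 28 (57.1%, 37.2 to 75.5) overlapped a peak of replicate 1. For all exonic peaks these shares were 85.1% and 87.3%. The 12 replicate 2 peaks without a counterpart lay in H2b (4 peaks), H4 (4), H2a (3) and H1 (1) genes.

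A background estimated from polyA RNA could be low for messages without a poly(A) tail, so the background below each histone summit was examined. Its median equalled 15 control reads in replicate 1 and 8.5 in replicate 2, against 18 and 14 for all exonic peaks. No histone summit had a background below 2 control reads, which 1045 of 11894 exonic peaks of replicate 1 and 1422 of 11493 of replicate 2 had. At such a share at most a few of the 19 and 28 histone peaks would have had one, so its absence says little. In replicate 1 the values lay between 2.56 and 36, and in replicate 2 between 2 and 28. The control library used for calling is not stated, so the part of the RNA selection in these enrichments was not tested.

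**Figure D2:**
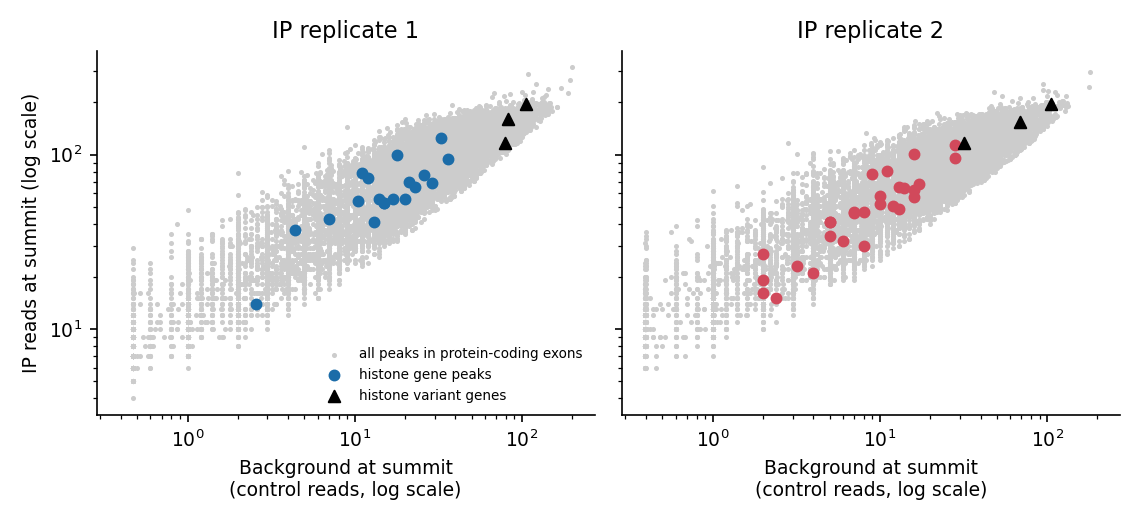
IP reads (vertical, log scale) against local background in control reads (horizontal, log scale) at the summits of histone genes (coloured circles), histone variant genes (black triangles) and all peaks in protein-coding exons (grey), by replicate. The histone summits lie inside the grey cloud, at backgrounds of 2.56 to 36 and 2 to 28, and the variant genes lie to their right.

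H2b, which pairs with H2a in the nucleosome, gave the most regular pattern. The summits of 10 H2b genes lay around a single GGAC in the coding sequence, whose A is 76 nt after the A of the start codon. This GGAC was present in 11 of 18 H2b genes. It spans the last base of a lysine codon and an aspartate codon ending in C, and the genes that lack it mostly have the synonymous codon ending in T. The 40 bases around the position are given for the carriers and for the genes without the motif, with GGAC in capitals, read on the coding strand of GRCm38. The first line is shared by 7 carriers and the second by the other 4.
Hist1h2bl (chr13:21716048-21716087, − strand): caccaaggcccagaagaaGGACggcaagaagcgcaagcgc
Hist1h2bg (chr13:23571489-23571528, + strand): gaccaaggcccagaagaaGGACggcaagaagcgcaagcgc
Hist1h2bm (chr13:21722154-21722193, + strand): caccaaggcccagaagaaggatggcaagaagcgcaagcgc
Hist1h2bp (chr13:21787571-21787610, + strand): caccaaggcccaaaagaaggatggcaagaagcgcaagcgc
Hist1h2bb (chr13:23746851-23746890, + strand): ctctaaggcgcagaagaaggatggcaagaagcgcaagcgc
Hist3h2ba (chr11:58948996-58949035, + strand): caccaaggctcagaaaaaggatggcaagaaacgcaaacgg
Hist2h2be (chr3:96221222-96221261, + strand): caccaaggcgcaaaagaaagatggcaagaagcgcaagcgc
Hist2h2bb (chr3:96269808-96269847, + strand): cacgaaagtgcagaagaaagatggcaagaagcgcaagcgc
Counted from 1 at the A of the start codon, Hist1h2bm, Hist1h2bp, Hist1h2bb and Hist3h2ba differ from the carriers' motif by C78T. Hist2h2be and Hist2h2bb differ by G75A and C78T, and Hist1h2ba, the remaining gene without the motif, does not line up at this place. The motif of the carriers is followed by G, which leaves it outside the DRACH definition.

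Of the 11 carriers, 6 had a summit in both replicates, 4 in 1 replicate and 1, Hist1h2bk, in none. Of the 7 genes without the motif, 1 had a summit in both, 1 in 1 replicate and 5 in none. Taken by replicate, 7 and 9 carriers were called, against 2 and 1 of the others. The 16 summits in the carriers' coding sequence lay with the A between 26 nt upstream and 16 nt downstream of them, with a median of 1.5 nt downstream. This split was noticed in the same data and carries no test. The carriers also shared more of their sequence with other loci, since a median of 86.0% of the 50-base words of their coding sequences occur elsewhere in the genome, against 38.0% for the other 7 genes. The part of shared sequence, or of different RNA levels, in the split was not tested. With a minimum fold enrichment of 4, 7 carriers and 1 other gene had a summit in either replicate.

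The enrichment at this site was moderate and similar among genes. Fold enrichment ran from 2.93 to 6.51, over 47 to 96 IP reads and a background of 8 to 36 control reads. Hist1h2bg had the widest gap between replicates, at 3.25-fold with 76 IP reads in replicate 1 and 6.51-fold with 81 in replicate 2. The IP reads were close and the background fell from 26 control reads to 11. Hist1h2bl showed 3.13-fold enrichment in replicate 1 and 4.59-fold in replicate 2. Hist1h2bc showed 3.67 and 4.13, Hist1h2bf 3.60 and 3.40, Hist1h2be 3.09 and 3.25, and Hist1h2bh 2.93 and 3.18. In those 4 genes the replicates were close. The carriers called once were Hist1h2bq in replicate 1 (4.31-fold) and, in replicate 2, Hist1h2bj (5.11), Hist1h2br (5.08) and Hist1h2bn (3.65), all in the range of the recurrent genes. Hist1h2bq and Hist1h2br have coding sequences of equal length (405 nt), and 100% of their coding words occur elsewhere in the genome. Whether the calls of Hist1h2bq and Hist1h2br stem from the same site was not tested.

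Hist2h2be, which lacks the shared motif, differed from the other H2b genes in the place and number of its peaks. A coding summit 213 nt after the start codon in replicate 1 (7.45-fold, 78 IP reads) and 173 nt in replicate 2 (4.49-fold, 65 IP reads) was joined by another summit far into the 3′ UTR. That one lay 1857 nt after the start codon in replicate 1 (6.44-fold, 73 IP reads) and 1816 nt in replicate 2 (7.43-fold, 77 IP reads). Both were called in both replicates. Its coding sequence has a GGAC of its own, in DRACH, whose A is 154 nt after that of the start codon. This lies 59 nt upstream of the replicate 1 coding summit and 19 nt upstream of that of replicate 2. Almost none of the peak sequence occurs elsewhere, with 0% of the words of the coding peaks and 1.73% and 1.47% of those of the 3′ UTR peaks. Hist2h2bb had a peak in replicate 1, with the lowest enrichment of all histone peaks (2.66-fold). Its summit lay 78 nt after the start codon, at the place of the motif that this gene lacks, in exons that it shares with Gm20628 and Gm42743.

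H4 peaks formed a second group near the start codon, with no GGAC within 50 nt of a summit. H4 pairs with H3 at the centre of the nucleosome, and all 13 H4 coding sequences are 312 nt long. In replicate 1, 4 H4 summits lay in the coding sequence, 54 to 63 nt after the start codon. In replicate 2 there were 8, of which 3 lay 62 to 63 nt and 5 lay 82 to 137 nt after it. No H4 summit had GGAC within 50 nt (0 of 5 in replicate 1 and 0 of 9 in replicate 2), whereas 56.1% and 56.0% of all placed exonic summits had. DRACH was found within 50 nt of 3 of 5 and 7 of 9 H4 summits. The 40 bases around the commonest summit position are given for 4 genes with DRACH in capitals where present. Hist1h4j and Hist1h4k had their summits here, while that of Hist1h4h lay 119 nt after the start codon and those of Hist1h4i, whose line holds GGACA, lay in the 3′ UTR.
Hist1h4j (chr13:21735141-21735180, + strand): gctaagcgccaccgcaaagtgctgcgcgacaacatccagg
Hist1h4k (chr13:21750421-21750460, − strand): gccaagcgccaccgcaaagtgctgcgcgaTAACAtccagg
Hist1h4h (chr13:23531160-23531199, + strand): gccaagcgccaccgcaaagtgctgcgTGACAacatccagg
Hist1h4i (chr13:22041239-22041278, − strand): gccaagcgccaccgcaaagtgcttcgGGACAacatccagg
Hist1h4j and Hist1h4k peaked within 1 nt of each other in both replicates, and the motif is present in 1 of them. Of their coding words 68.5% and 72.3% occur elsewhere in the genome, so the summits of these genes may not be independent.

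Hist1h4k was enriched 7.85-fold in replicate 1 (37 IP reads) and 6.67-fold in replicate 2 (41 IP reads). Hist1h4j was enriched 6.18-fold (43 IP reads) and 5.60-fold (46 IP reads), and both its summits lay 63 nt after the start codon. Hist1h4d had its summit at the same base in both replicates, with 3.83-fold and 5.72-fold enrichment. Hist2h4 was enriched 3.83-fold and 3.59-fold, and 6.15% of its coding words are found elsewhere, the lowest share among the recurrent H4 genes. The highest enrichment of any histone peak, 8.90-fold in Hist1h4h, was that of replicate 2, with 27 IP reads over a background of 2, and replicate 1 had no peak there. Hist1h4b (6.67-fold), Hist1h4a (5.56-fold) and Hist1h4f (3.28-fold) were also called in replicate 2 alone. The replicate 2 peaks of Hist1h4b and Hist1h4k had the same values, 41 IP reads over 5 control reads. Of their peak words 69.4% and 61.6% occur elsewhere. The replicate 1 peaks of Hist1h4d and Hist2h4 also had the same values, 53 over 15, with 29.3% and 0% of peak words elsewhere. Whether peaks of equal values rest on the same reads was not tested. Hist1h4c, Hist1h4m, Hist1h4n and Hist4h4 had no summit.

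**Figure D3:**
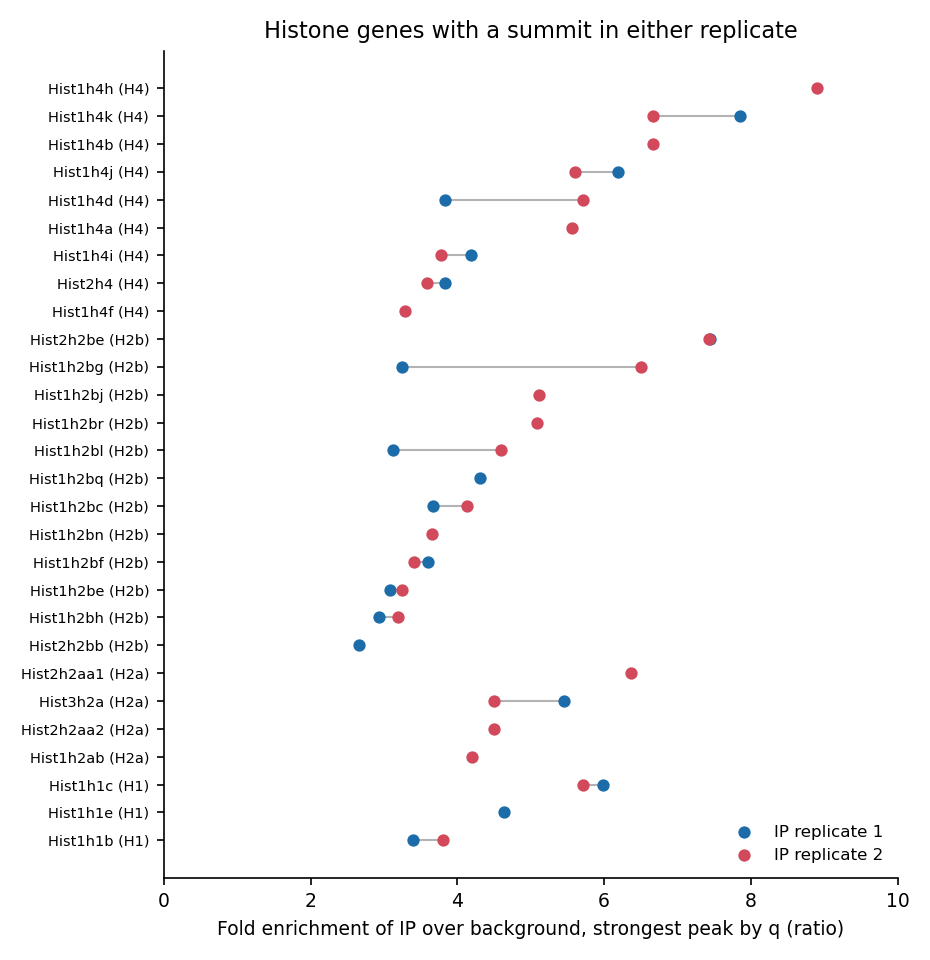
Fold enrichment (horizontal, ratio of IP to local background) at the strongest peak, by −log10 q, of each of the 28 histone genes with a summit, in replicate 1 (blue) and replicate 2 (red). Grey lines join the 15 genes called in both; Hist1h4h has the highest value (8.90) and Hist2h2bb the lowest (2.66).

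H1, which binds the linker DNA between nucleosomes, had peaks in genes with little shared sequence. Hist1h1c was the strongest by q-value, with a peak 1005 bp wide in replicate 1 and 881 bp in replicate 2. It was enriched 5.98-fold (99 IP reads) and 5.71-fold (101 IP reads), and its summit lay in the 3′ UTR, 1108 and 1126 nt after the start codon. Replicate 2 had a second, weaker summit there, 36 nt after the start codon (23 IP reads). Hist1h1b had a coding summit 46 nt after the start codon in replicate 1 (3.40-fold) and 55 nt in replicate 2 (3.81-fold). Hist1h1e was called in replicate 1 on 14 IP reads, in an exon shared with Gm11398. Hist1h1a, Hist1h1d and the testis form Hist1h1t had no summit.

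H2a had few peaks. No summit lay in 14 of its 18 genes, namely Hist1h2aa, Hist1h2ac to Hist1h2ai, Hist1h2ak, Hist1h2an, Hist1h2ao, Hist1h2ap, Hist2h2ab and Hist2h2ac. Hist3h2a was called in both replicates (5.45-fold and 4.49-fold, 54 and 32 IP reads) with the summit in its 3′ UTR, in an exon that also belongs to Trim17, and without strand the peak cannot be given to either gene. The other calls, Hist1h2ab, Hist2h2aa1 and Hist2h2aa2, were made in replicate 2 on 21, 19 and 15 IP reads. In Hist2h2aa1 and Hist2h2aa2, 100% of the coding words of 50 bases occur elsewhere, and both summits lay in exons of other annotated genes too.

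H3 had the most GGAC in its coding sequences and no peak. Its members are Hist1h3a to Hist1h3i, Hist2h3b, Hist2h3c1 and Hist2h3c2. All 12 H3 coding sequences contain GGAC, 3 or 4 times each, which amounts to 7.70 per kb against 3.94 in H4, 1.87 in H2b, 1.70 in H2a and 1.28 in H1. Every one of these 39 GGAC in H3 is followed by A, C or T and so is a DRACH motif, whereas 2 of 13 in H2b and 1 of 16 in H4 are. H3 genes had 5 or 6 DRACH in the coding sequence, H2b genes had 1 to 5, and H1 genes, of which 2 of 6 were called in both replicates, had 7 to 14, with 5 of 5 GGAC in DRACH. Per kb of coding sequence DRACH was commoner in H1 (16.1) than in H3 (12.2), and rarer in H4 (8.38), H2a (7.93) and H2b (5.33). Of the H1 genes called in both replicates, Hist1h1c had its recurrent summit in the 3′ UTR. The H3 coding words found elsewhere ran from 66.9% to 100% with a median of 85.4%, and the medians were 79.6% in H2b and 84.2% in H2a. The replication-independent genes H3f3a and H3f3b, which encode the H3.3 protein outside S phase as well, had no summit either. The RNA level of the H3 genes was not measured here, and why they lacked peaks was not tested.

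**Figure D4:**
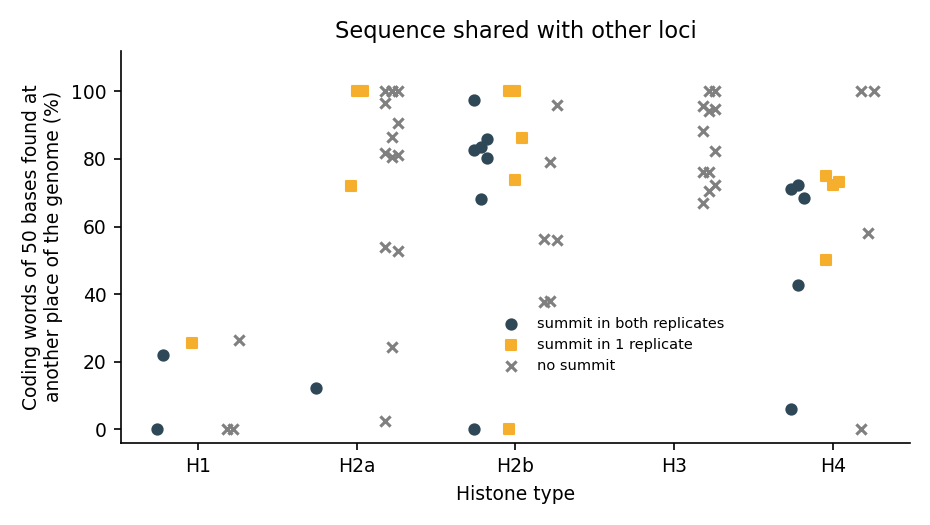
Percentage of the 50-base words of each gene's coding sequence that occur at another place of the genome (vertical), by histone type and by whether the gene had a summit in both replicates (circles), in 1 (squares) or in none (crosses). H3 and H2b have similar medians (85.4% and 79.6%), and genes without a summit span the scale.

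Across types, the coding summits gathered near the start codon. Within 150 nt after it lay 13 of 14 coding summits in replicate 1 (92.9%) and 22 of 23 in replicate 2 (95.7%). In other protein-coding genes 10.9% and 11.3% of coding summits lay there. Histone coding sequences are short, so genes with coding sequences of the same range, 312 to 672 nt, were taken apart, and in these the shares were 34.7% and 35.1%. The limit of 150 nt was chosen after the positions were seen, and histone genes are near copies of each other. The position was shared by H2b genes with GGAC and by H4 genes and Hist1h1b, whose summits have no GGAC within 50 nt. No histone summit lay in a 5′ UTR, although 10.8% and 11.2% of exonic summits did. The coding sequence held 73.7% and 82.1% of histone summits, against 56.4% and 55.9% of all placed exonic summits. The annotated UTRs of histone genes are often short or absent, which limits both comparisons. Their median 3′ UTR is 94 nt, and Hist1h2bl and Hist1h4k are annotated with no UTR.

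**Figure D5:**
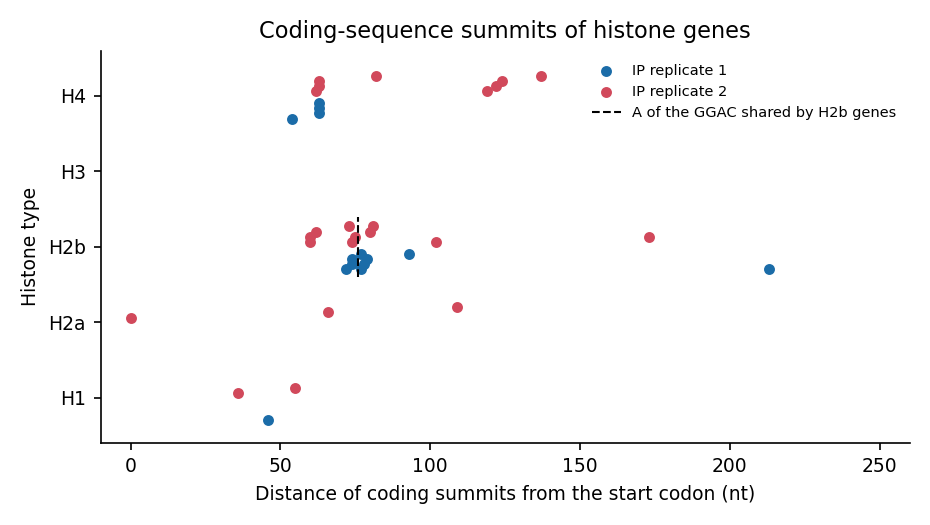
Distance of coding-sequence summits from the start codon (horizontal, nt) by histone type for replicate 1 (blue) and replicate 2 (red), with points shifted vertically for visibility and a dashed line at the A of the GGAC of H2b genes (76 nt). Summits of 4 types gather within 150 nt, and the summits beyond that are those of Hist2h2be (213 and 173 nt).

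GGAC lay within 50 nt of 42.1% of histone summits in replicate 1 and 39.3% in replicate 2, against 56.1% and 56.0% of all placed exonic summits. Of all windows of this size along the histone transcripts, 21.2% hold GGAC. H2b supplied most of the summits near GGAC, with 8 of 10 and 10 of 12, where 16.4% of windows along H2b transcripts contain it. Most of these H2b summits lie at the shared GGAC of near-identical genes. They are not independent hits, and no test against the share of windows was made. DRACH, where D stands for any base but C, R for a purine and H for any base but G, lay near 68.4% and 67.9% of histone summits, below both the 93.3% of exonic summits in each replicate and the 73.4% of all histone windows. Both motifs were searched on the sense strand, and every GGAC followed by A, C or T is also a DRACH.

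The mature 3′ end of these mRNAs is set by the stem-loop, so its place was searched for in each gene. The search took a perfect stem of 6 bp that opens with GG and a loop of 4 bases, TNTN, where N is any base. Such a stem-loop was present within 150 nt past the stop codon in 65 of 67 genes. Hist1h2an and Hist2h2be had none of this form, and other forms were not searched for. The commonest forms are printed with the stem in capitals and the loop in lower case, and were carried by 41, 9 and 8 genes, each shown for 1 of them.
Hist1h2bg (41 genes): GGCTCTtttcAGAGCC
Hist1h2bl (9 genes): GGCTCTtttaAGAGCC
Hist1h4k (8 genes): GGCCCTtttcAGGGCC
Processed histone mRNA ends a few bases past the stem-loop. Beyond it lay 6 summits, in 4 genes. In Hist1h1c they lay 430 and 448 nt past it in replicates 1 and 2. In Hist1h4i they lay 133 and 129 nt past it, with 4.19-fold enrichment on 124 IP reads and 3.78-fold on 114, and the peaks were 686 and 659 bp wide. Hist1h1e (916 nt, replicate 1) and Hist1h2bh (482 nt, replicate 2) were each called once. In 27 genes the annotation runs more than 100 nt past the stem-loop. Recurrent summits past the stem-loop were thus those of Hist1h1c and Hist1h4i. Hist2h2be had a recurrent 3′ UTR summit too, but no stem-loop of the searched form to place it by.

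Genes that encode histones outside S phase were counted in the same way. Of 16 replication-independent variant genes, 3 had a summit in both replicates (18.8%, against 30.9% of all protein-coding genes and 22.4% of the S-phase histone genes), namely H1f0, H2afx and H2afj. All 3 lay in the 3′ UTR. H2afx, the H2a form that is phosphorylated at DNA breaks, was enriched 2.09-fold on 195 IP reads and 1.75-fold on 194. H1f0, the linker histone of resting cells, was enriched 2.22-fold on 160 IP reads and 2.09-fold on 153. H2afj was enriched 1.69-fold and 3.45-fold, both on 117 IP reads. Their backgrounds, 79 to 106 control reads in replicate 1 and 31.6 to 105 in replicate 2, were all higher than that of any S-phase histone summit of the same replicate.

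Messages for the machinery that makes and removes histone mRNA also carried peaks. Of 25 genes of histone mRNA synthesis, processing and decay, 13 had a summit in both replicates (52.0%, exact 95% interval 31.3 to 72.2, against 30.9% of all protein-coding genes) and 16 in either (64%, against 37.1%). The 13 included Npat, the coactivator that turns on histone genes under cyclin E and Cdk2, and Lsm10, a subunit of the U7 particle that cleaves histone pre-mRNA. Zfp473, a zinc finger protein of the same particle, was enriched 10.1-fold and 5.72-fold. Ncbp1, which binds the cap, was enriched 8.01-fold and 7.24-fold in its 5′ UTR. Upf1, the helicase needed for histone mRNA decay, was enriched 8.11-fold and 12.1-fold in its 5′ UTR. Slbp and the U7 subunit Lsm11 had no summit. Histone chaperone genes encode the carriers of new histones to DNA. Of 24 such genes, 17 had a summit in both replicates (70.8%, exact 95% interval 48.9 to 87.4, against 30.9% of all protein-coding genes). In either replicate 18 had one (75%, against 37.1%). Ranked by the lower fold enrichment of both replicates, the first was Ubn1, of the complex that deposits H3.3 (7.56-fold and 5.85-fold). Next came Tonsl, which binds new H4 behind the fork (4.09-fold and 5.42-fold). Tonsl was followed by the helicase subunit Mcm2, which holds H3 and H4 (3.69-fold and 3.44-fold). The shares of all protein-coding genes cover every annotated gene, whether expressed in these cells or not. RNA levels were not measured, so neither the processing list nor the chaperone list is matched to all genes in expression. Whether RNA level accounts for the higher shares of these lists was not tested.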

How the data were processed

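m6A IP fragments of Kit+ foetal liver cells were sequenced in 2 biological replicates. Reads were aligned by the authors to GRCm38 with HISAT2, and peaks were called for each replicate with MACS2 (2.1.1.20160309, without its shifting model). The deposited lists give the fold enrichment (a ratio of IP to local background), −log10 of the p-value and of the q-value at the summit, and a score equal to 10 times −log10 q cut to a whole number. The smallest deposited −log10 q was 1.31 and 1.30, which corresponds to a q-value of 0.05. The summit offset is also as deposited. Neither threshold nor control library is given in the sources used here. Input libraries were not analysed here.

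The histone genes and the other gene lists were chosen with earlier results of these data known, and so was the rule for named genes. In each type it takes the 4 members with the highest lower fold enrichment of both replicates, every member called once or with several peaks, and the uncalled members, and in the other lists the 3 strongest. Hist1h2bl, Hist1h2be and Hist2h4 are given with values that were seen first. A gene was called when a summit lay in an exon of the basic GENCODE M21 transcript set, and positions refer to its transcript of longest coding sequence. Peaks were shared when they overlapped by at least 1 bp. IP reads and background (in control reads) were computed from fold enrichment and p-value under the formulas of MACS2. A whole number of IP reads matched 100% of peaks to within 0.001 in −log10 p. Of 47 histone backgrounds, 5 were not whole, since MACS2 also averages over wider regions. The read computation and the search for repeated words were checked on simulated data. Reads that fit several loci equally well were handled by HISAT2 in a way not given in the sources used here. Words of 50 bases were counted on both strands of the genome. Python 3.11.15, numpy 2.4.6, pandas 2.3.3, scipy 1.17.1 and numba 0.67.0 were used. Of 30 listed processing genes 25 matched a symbol of the annotation. Alternatives were minimum fold enrichment or −log10 q, any overlap with an exon, the comprehensive transcript set, other motif windows and word lengths, and each replicate alone. Intervals cover counting error only and treat genes or peaks as independent, although many histone genes are near copies.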

Additional observations from a re-analysis of the deposited data

How the results depend on the processing

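The counts over all 67 histone genes kept within 1.5 times of their value under a minimum −log10 q of 3 or 5, any overlap with an exon, the comprehensive transcript set and removal of summits in exons of several genes, under which 14 genes were called in both replicates and 22 in either. That removal lowered H2a from 1 to 0 genes in both and from 4 to 1 in either, and turned the order against all protein-coding genes in replicate 2 and in either. A minimum fold enrichment of 4 lowered the count in both replicates from 15 to 5, and the mean share of peaks found in the other replicate from 70.7% to 48.3%. Each replicate alone gave 18 to 25 genes in place of 28. The mean share of summits with GGAC nearby, 40.7% within 50 nt, was 34.5% within 25 nt, 61.9% within 100 nt and 68.1% for DRACH. The median share of peak words found elsewhere, 39.6% at 50 bases, was 24.5% at 75 bases. Taken one replicate at a time, it ran from 29.3% to 49.98%, the median fold enrichment from 3.83 to 4.83, the median background from 8.5 to 15 control reads, the coding share from 73.7% to 82.1% and the GGAC share from 39.3% to 42.1%. Of 50 recomputed values 41 stayed within these limits or the spread between replicates and 9 moved beyond them. After the H2b split by GGAC had been seen, it was recomputed under the same settings: 7 to 10 carriers and 1 to 2 of the other genes had a summit in either replicate.

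No paired analysis was possible because IP and input samples share replicate numbers but only the IP samples have a peak list, and no test between groups was made. With 2 replicates, a gene called once cannot be told from one missed once, and weakly enriched or low-level messages can be missed. Reads from near-identical genes cannot be told apart, which limits every statement on a single member with shared sequence.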

Other observations

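Some peaks lay close to histone genes but outside their annotated exons. Upstream of Hist1h2bm, within 1000 bp, both replicates had a peak with its summit outside any member exon (6.52-fold on 34 IP reads and 8.17-fold on 35), while Hist1h2bm itself had none. Between exons of Hist1h2be, whose annotation spans a long stretch of the Hist1 cluster, there were 2 peaks in replicate 1 (4.52-fold on 13 IP reads and 5.03-fold on 26) and 1 in replicate 2 (10.97-fold on 22 IP reads over 1 control read). The pseudogenes Hist1h2aj, Hist1h2al and Hist3h2bb-ps had 0 summits in each replicate.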
